A study of Mus musculus with 6 samples.

Results

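A set of 49 genes of DNA replication and the cell cycle was followed in mouse liver: 30 that act at the G1/S transition or at the replication fork, and 19 that act in mitosis. They were chosen by name, with earlier results of these data already known. Each gene was read by the brightest of the array features (probe sets) that the platform annotation gives to that gene alone, judged by the mean over all 6 arrays. By this rule 48 of the 49 listed genes were measured, out of 12393 genes in all, and Ccnb1 was not. The arrays held total liver RNA from 3 wild-type and 3 PiZ transgenic animals, all 6 weeks old and of strain C57BL/6, with 1 array for each biological replicate. PiZ mice make the human Z variant of alpha-1 antitrypsin, a secreted protease inhibitor that folds poorly and builds up inside hepatocytes. No source used here gives the promoter of the transgene or the number of founder lines. The single comparison asks how PiZ liver differs from wild-type liver at that age. Values are log2 intensities, so a difference of 1 is a doubling, and differences are PiZ minus wild-type with the standard error (SE) and adjusted p of limma, n = 3 arrays per group.

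A cell that leaves rest makes D-type cyclins, which with Cdk4 phosphorylate the retinoblastoma protein and so free E2F transcription factors. E2F then drives genes for origin licensing, the Mcm helicase, DNA polymerases and nucleotide synthesis. Later the mitotic genes are switched on through complexes of MuvB with FOXM1, which act at a promoter element called the CHR. Hepatocytes of adult liver rarely divide but can re-enter the cycle after tissue loss, and in young mice liver growth and the making of polyploid hepatocytes are still under way.

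Both classes of promoter element are shown first, because the split into G1/S and mitotic genes follows them in textbooks. RefSeq promoter windows (build GRCm38.p6, 250 bases before to 50 after a gene's start) were found for 40 of the 49 members by symbol. They were not found for Kif20a, Gins1, Ccnd2, Ccna2, Ccne2, Mcm4, Ccnd1, Foxm1 and Aurkb. The E2F letters searched were TTTCCCGC, TTTCGCGC, TTTGCCGC and TTTGGCGC on both strands. In each line 1 match is in capitals, with 12 bases on each side where the window allowed, written 5′ to 3′ on the strand of the gene:
Mcm5: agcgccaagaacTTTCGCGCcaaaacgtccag
Mcm6: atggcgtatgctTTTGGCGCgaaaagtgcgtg
Mcm7: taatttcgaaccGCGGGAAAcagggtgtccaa
Rfc3: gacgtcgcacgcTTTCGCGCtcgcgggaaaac
Pola1: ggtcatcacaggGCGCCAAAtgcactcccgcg
Cdk2: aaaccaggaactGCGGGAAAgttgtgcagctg
Cdt1: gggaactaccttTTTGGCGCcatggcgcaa
With the start site counted as 0, the first capital base lay at -153 in Mcm5 (chr8:75109344-75109375, plus strand), -110 in Mcm6 (chr1:128359796-128359827, minus strand) and -165 in Mcm7 (chr5:138172029-138172060, minus strand). It lay at -10 in Rfc3 (chr5:151651199-151651230, minus strand), -138 in Pola1 (chrX:93632274-93632305, minus strand), -140 in Cdk2 (chr10:128705172-128705203, minus strand) and 32 in Cdt1 (chr8:122568035-122568064, plus strand). In Mcm5 and Mcm6 a further match on the opposite strand overlapped the printed capitals, and Rfc3 holds a further match, GCGGGAAA, whose first base is at 0 and which stands in lower case in its line. The E2F letters occurred in 10 of 25 G1/S members with a window (40%) and in 1 of 15 mitotic members (6.67%), Cdk1. Over all 27025 genes with a window the share was 2.60%, and over the 9887 of them measured on these arrays it was 4.07%.

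The CHR letters TTTGAA were searched on both strands as well. The genes shown are mitotic members whose values are taken up later, and Mcm2 is a G1/S member that rose:
Cdk1: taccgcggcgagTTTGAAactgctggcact
Cdc20: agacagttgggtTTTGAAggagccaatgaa
Cenpa: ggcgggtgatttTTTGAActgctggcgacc
Mki67: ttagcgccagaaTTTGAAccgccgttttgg
Plk1: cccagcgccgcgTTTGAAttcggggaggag
Ccnb2: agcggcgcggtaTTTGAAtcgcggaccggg
Mcm2: agggctcagcctTTTGAAagctgtgggcgg
These runs lie at chr10:69352910-69352939 (Cdk1, minus strand), chr4:118437344-118437373 (Cdc20, minus), chr5:30666890-30666919 (Cenpa, plus), chr7:135716478-135716507 (Mki67, minus), chr7:122159453-122159482 (Plk1, plus), chr9:70421533-70421562 (Ccnb2, minus) and chr6:88898833-88898862 (Mcm2, minus). The CHR letters occurred in 11 of 15 mitotic windows (73.3%) and in 3 of 25 G1/S windows (12%), those of Cdc45, Fen1 and Mcm2. Their share was 20.2% over all genes with a window and 15.4% over those on the arrays. The CCAAT box (CCAAT, both strands) occurred in 13 of 15 mitotic and 14 of 25 G1/S windows, against 41.1% over all genes, and it overlapped a match of the other elements in 1 member, Mcm7. Cdk1 was the 1 member with E2F and CHR letters. Among the members that changed in PiZ, E2F letters occurred in 1 of 3 that rose and 3 of 7 that fell, and CHR letters in 1 of 3 and 1 of 7. A match describes the letters and does not show that a factor binds there.

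PiZ replicate 1 stood apart from PiZ replicates 2 and 3, and so did its RNA. The log2 distance between the 3′ and 5′ probe sets of the control transcript Gapdh was 1.49 to 2.06 over the wild-type arrays. PiZ replicate 1 lay in that range at 1.99, and the other PiZ arrays lay at 4.39 and 4.01. A wide distance is a known sign of broken RNA. The median of SDs over all genes was 0.207 in PiZ and 0.100 in wild-type. In bulk tissue, fewer cells of a type and less RNA per cell cannot be told apart. Hepatocyte markers were bright in every array, with a summed log2 level of 17.45 to 17.47 in wild-type and 17.07 to 17.36 in PiZ, and 1 of 9 rose while 2 fell. Summed neutrophil markers ran from 7.76 to 8.23 in wild-type and 9.22 to 9.67 in PiZ (2 of 8 rose, S100a8 and S100a9), macrophage markers from 12.83 to 12.88 and 13.07 to 13.35 (3 of 8 rose), and B cell markers from 7.97 to 8.06 and 9.08 to 10.82 (1 of 4 rose, Ighm). Erythroid markers ran from 9.98 to 10.22 and 10.34 to 10.77 (1 of 7 rose and 2 fell). No marker of T and NK cells (7 measured), bile duct (5), stellate (8) or endothelial cells (7) passed the test. The files hold no detection calls and no 0, so no marker can be called absent. The part of these cell types in the results below was not tested. For RNA quality, values without single arrays and from a fit with the 3′ to 5′ distance as a covariate are given with the counts below. They are given with some single genes, not with each gene they change.

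At an adjusted p below 0.05, 10 of the 48 members passed (20.8%), a share close to that of all genes. Cdt1, Mcm2 and Tyms rose, and Tk1, Rfc5, Cdk2, Rfc3, Pola1, Cdk4 and Cenpa fell. Over all 12393 genes 23.6% passed, 11.3% higher and 12.3% lower in PiZ, against 3 higher and 7 lower of the 48 members. The arrays of both groups did not overlap for 19 members, PiZ being above in 11 and below in 8, where 44.8% of all genes showed no overlap. The median difference of the members was -0.02, beside 0.08 for all genes. Their median size regardless of sign was 0.355, beside 0.276. At an unadjusted p below 0.05 it was 23 of the 48 members (47.9%), beside 40.0% of all genes.

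The G1/S and replication members held 9 of the 10 calls. These were 30% of the G1/S genes, beside 5.56% of the mitotic genes and 23.6% of all genes. Of their 30 genes 3 rose (10%), 6 fell (20%) and 21 did not pass, with a median difference of -0.02 and a range from -1.24 to 0.59. Of the 18 measured mitotic genes 0 rose, 1 fell (5.56%) and 17 did not pass, with a median of 0.06 and a range from -0.89 to 1.03 (limma; 5, or 27.8%, had an unadjusted p below 0.05, beside 40.0% of all genes and 60% of the 30 G1/S members). The groups overlapped for 14 of the 30 (46.7%) and for 15 of the 18 (83.3%), beside 55.2% of all genes. The wild-type arrays themselves differed more for the mitotic genes, with a median SD of 0.309 against 0.133 for the G1/S genes. These counts move with the arrays used: without PiZ replicate 1, 23 members passed, among them all 10, and in each fit without 1 wild-type array 2 or 3 passed. Without PiZ replicate 2 it was 6, without PiZ replicate 3 it was 5, and PiZ replicate 1 set alone against wild-type gave 8. With the 3′ to 5′ distance as a covariate, Pola1 and Rfc5 alone of the 48 passed. Centring the arrays on 7 reference genes moved the median of all genes from 0.08 to 0.40 and the split of all calls from 1396 higher and 1525 lower to 2198 and 580. The members then gave 8 higher and 2 lower G1/S genes and 3 higher and 0 lower mitotic genes, and no member that passed here changed its sign.

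**Figure D1:**
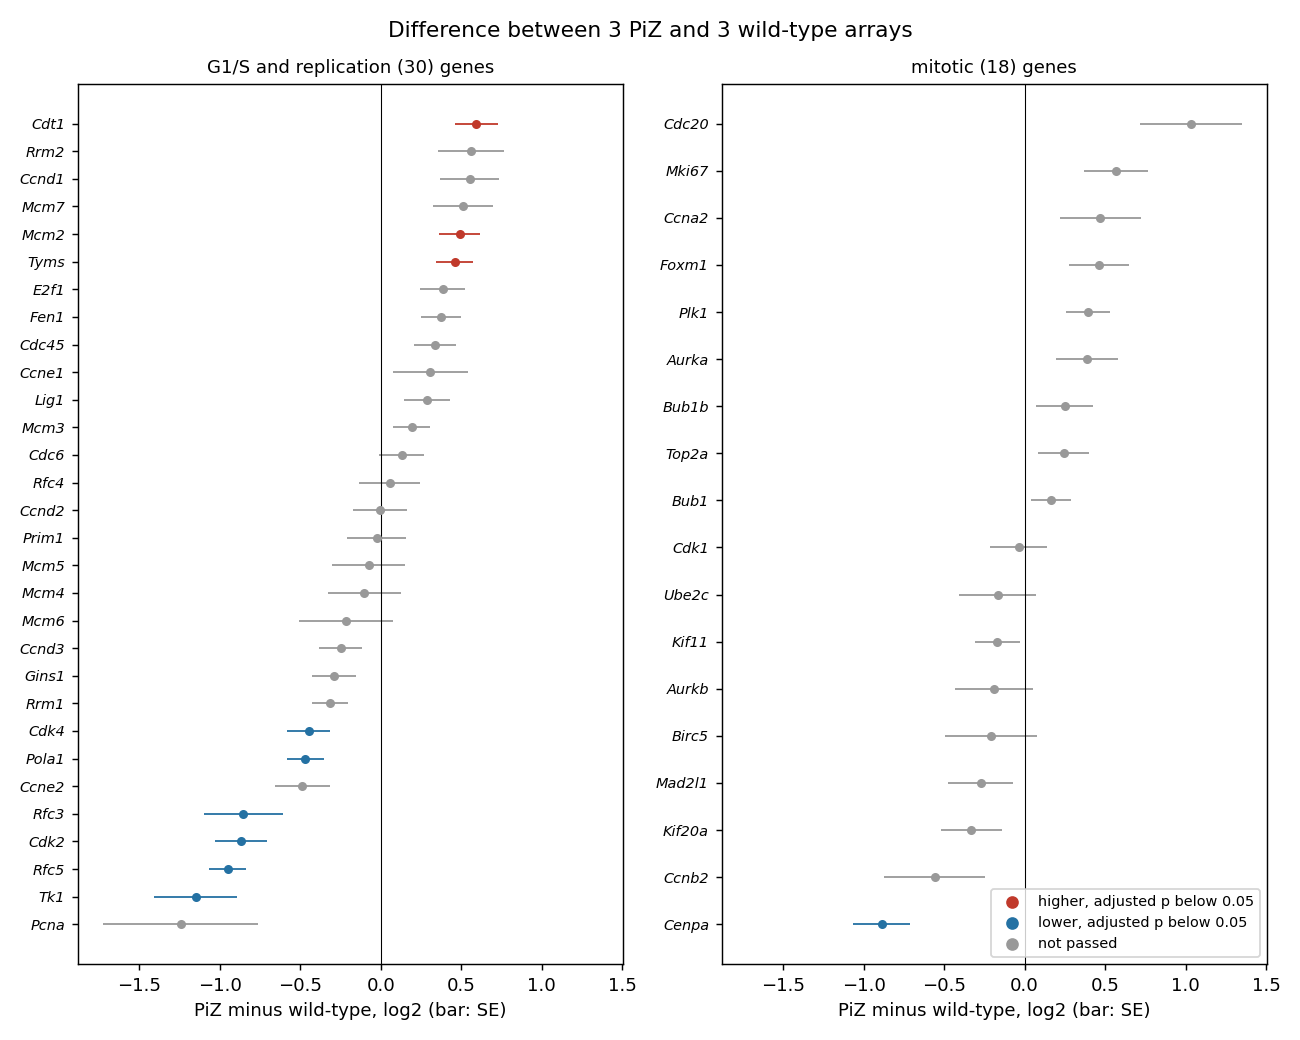
Difference between PiZ and wild-type (log2, x axis) for each G1/S and replication gene (left) and each mitotic gene (right), ordered by size; points are limma estimates from 3 arrays per group and bars are SE. Among the 30 genes on the left 3 are higher and 6 lower at an adjusted p below 0.05, and among the 18 on the right only Cenpa passes.

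The Mcm2 to Mcm7 proteins form the ring-shaped helicase that unwinds DNA at the fork, and their readings depended on the PiZ array. At the brightest probe sets, all 6 genes lay above their wild-type mean in PiZ replicate 1, by 0.44 (Mcm2), 0.33 (Mcm3), 0.34 (Mcm4), 0.47 (Mcm5), 0.46 (Mcm6) and 0.18 (Mcm7). In PiZ replicates 2 and 3, Mcm4, Mcm5 and Mcm6 lay below it. With the 3′ to 5′ distance as a covariate all 6 differences were positive, from 0.13 (Mcm7) to 0.47 (Mcm5), and none passed. Mcm2 read 7.92, 7.96 and 7.61 in wild-type and 8.27, 8.39 and 8.31 in PiZ. All PiZ arrays lay above all wild-type arrays, and Mcm2 rose by 0.49 (SE 0.13, limma adjusted p = 0.0305), a fold of 1.40, with a second probe set at 0.62. Mcm7 read 9.09, 9.26 and 8.76 in wild-type and 9.22, 9.73 and 9.69 in PiZ. PiZ replicates 2 and 3 were high and PiZ replicate 1 lay inside the wild-type range, and the difference of 0.51 (SE 0.19, adjusted p = 0.0813) did not pass. Mcm3 differed by 0.19 (SE 0.115, adjusted p = 0.244) and Mcm4 by -0.10 (SE 0.23, adjusted p = 0.755). Other probe sets read from -0.29 to 0.41 for Mcm3, 0.04 for Mcm4 and from -0.33 to 0.38 for Mcm7. PiZ replicate 1 was not above the wild-type mean at each of these. At an Mcm7 probe set it read 7.26, with 7.44, 7.42 and 7.24 in wild-type.

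Mcm5 and Mcm6, the pair with overlapping E2F letters, split the PiZ arrays at their brightest probe sets. Wild-type arrays read 7.13, 7.72 and 7.30 for Mcm6, PiZ replicate 1 read 7.84, and the other PiZ arrays both read 6.83. For Mcm5 the wild-type readings were 4.55, 4.66 and 4.45, that of PiZ replicate 1 was 5.02, and those of the other PiZ arrays were 4.10 and 4.32. At these probe sets PiZ replicate 1 was above every wild-type array for both genes. The other PiZ arrays were below every one, a pattern that 417 of all 12393 genes showed. The differences of -0.22 (SE 0.29) for Mcm6 and -0.07 (SE 0.23) for Mcm5 therefore average opposite readings and did not pass (limma adjusted p = 0.60 and 0.83). Without PiZ replicate 1 both fell, and with that array alone Mcm6 read 0.46 and Mcm5 0.47 above the wild-type mean. The 3′ to 5′ distance of the control transcripts splits the PiZ arrays in the same way. The second Mcm6 probe set did not show the split. It read 7.08, 7.37 and 6.996 in wild-type and 7.01, 7.06 and 6.87 in PiZ, a difference of -0.17.

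The other parts of the fork helicase, Cdc45 and the GINS subunit Gins1, did not pass. Cdc45 read 4.63, 4.92 and 4.87 in wild-type and 5.17, 4.99 and 5.26 in PiZ, so its groups did not overlap (0.34, SE 0.13, adjusted p = 0.0952), while Gins1 differed by -0.29 (SE 0.14, adjusted p = 0.151). Licensing factors load the helicase onto origins in G1. Cdt1, the loader that geminin holds in check, read 7.55, 7.79 and 7.78 in wild-type and 8.26, 8.50 and 8.15 in PiZ. Every PiZ array was above every wild-type array, and Cdt1 rose by 0.59 (SE 0.13, limma adjusted p = 0.0197), a fold of 1.51. Its other probe sets read 0.11 and -0.62, so the rise rests on the brightest. Cdc6, its partner, was dim and differed by 0.13 (SE 0.14, adjusted p = 0.516).

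The sliding clamp and its loader held the largest downward difference of the members, that of Pcna, and 2 of the 7 falls. Pcna, the clamp that tethers polymerases to DNA, read 9.22, 9.21 and 9.24 in wild-type. PiZ replicate 1 had the same 9.22, and the remaining PiZ arrays had 6.99 and 7.72. PiZ replicate 1 was thus at the wild-type level and the other PiZ arrays far below, and the difference of -1.24 (SE 0.48, limma adjusted p = 0.097) did not pass. It passed without PiZ replicate 1, where it was -1.87, and it was 0.07 with the 3′ to 5′ distance as a covariate.

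Replication factor C opens the clamp and loads it. Rfc5 read 8.03, 7.94 and 7.89 in wild-type and 7.13, 6.996 and 6.87 in PiZ. The PiZ arrays lay close together and well below wild-type, and Rfc5 fell by 0.95 (SE 0.11, limma adjusted p = 0.00227), a fold of 1.93. It was the only member that passed in the same direction in all 17 alternative settings run at the 0.05 threshold. Rfc3 read 5.95, 6.06 and 5.89 in wild-type and 5.65, 4.57 and 5.11 in PiZ. The groups did not overlap, PiZ replicate 1 lying nearest to wild-type, and Rfc3 fell by 0.85 (SE 0.25, adjusted p = 0.0429), with a second probe set at -0.25. Rfc4 differed by 0.06 (SE 0.19, adjusted p = 0.844), but its other probe set read -1.02, and the mean of both fell by 0.48 with an adjusted p of 0.037.

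DNA polymerase alpha with primase starts each new strand. Its catalytic subunit Pola1 read 6.26, 6.35 and 6.24 in wild-type and 5.78, 5.97 and 5.69 in PiZ. All PiZ arrays were below all wild-type arrays by a like amount, and Pola1 fell by 0.47 (SE 0.12, limma adjusted p = 0.0254). The primase subunit Prim1 differed by -0.03 (SE 0.18, adjusted p = 0.927), with a second probe set at -0.73. Lig1 and Fen1, which seal and trim Okazaki fragments, differed by 0.29 (SE 0.14, adjusted p = 0.178) and 0.37 (SE 0.12, adjusted p = 0.0637). At the brightest Fen1 probe set all PiZ arrays (9.41, 9.58 and 9.45) were above those of wild-type (9.08, 9.28 and 8.96). The second Fen1 probe set read -0.17, with 5.22, 5.21 and 5.16 in wild-type and 5.50, 4.89 and 4.69 in PiZ.

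At their brightest probe sets the 4 genes that supply nucleotides did not overlap between groups, 2 above and 2 below. Over all genes 44.8% showed no overlap. Tk1, the thymidine kinase of the salvage route, read 7.40, 7.41 and 7.92 in wild-type and 6.86, 5.89 and 6.52 in PiZ. Every PiZ array was lower, and Tk1 fell by 1.15 (SE 0.26, limma adjusted p = 0.0194), a fold of 2.22, passing in 11 of 17 alternatives. Tyms, the thymidylate synthase of the route that makes the same base anew, read 3.85, 3.72 and 3.75 in wild-type and 4.23, 4.10 and 4.38 in PiZ. It rose by 0.46 (SE 0.12, adjusted p = 0.0282), but all of its values lay near or below the lower quartile of the arrays (4.28 to 4.46), where background weighs most, and its other probe sets read 0.08 and 0.07. The ribonucleotide reductase subunits also parted: Rrm2 read 7.34, 8.17 and 7.89 in wild-type and 8.44, 8.37 and 8.28 in PiZ (0.56, SE 0.21, adjusted p = 0.0815), and Rrm1 7.23, 7.41 and 7.32 against 7.12, 6.92 and 6.97 (-0.31, SE 0.11, adjusted p = 0.0777). Neither passed. The other Rrm2 probe sets read -0.23 and -0.55 and that of Rrm1 -0.04, each with overlap between the groups.

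Both kinases among the G1/S members, Cdk2 and Cdk4, fell, and none of the 5 G1 cyclins passed. Cdk2, the partner of cyclins E and A, read 7.33, 7.46 and 7.36 in wild-type and 6.74, 6.62 and 6.16 in PiZ. The groups were far apart, and Cdk2 fell by 0.87 (SE 0.16, limma adjusted p = 0.0103), a fold of 1.83, passing in 15 of 17 alternatives. Cdk4, the partner of D-type cyclins, read 7.63, 7.53 and 7.55 in wild-type and 7.35, 6.94 and 7.06 in PiZ. All PiZ arrays were lower, and Cdk4 fell by 0.45 (SE 0.13, adjusted p = 0.0458), which passed in 4 of 17 alternatives.

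Ccnd1, the cyclin D1 gene that responds to growth signals in liver, read 9.31, 9.26 and 9.34 in wild-type and 9.85, 10.22 and 9.49 in PiZ. Every PiZ array was above every wild-type array, but the PiZ spread was wide and the difference of 0.55 (SE 0.18, limma adjusted p = 0.0624) did not pass. Its other probe sets read 0.69 and 0.79, and both passed when all 20380 single-gene probe sets were tested one by one (adjusted p = 0.0461 and 0.0333). Ccnd2 differed by -0.0054 (SE 0.17, adjusted p = 0.983) and Ccnd3 by -0.25 (SE 0.13, adjusted p = 0.204). The other Ccnd2 probe sets read from -0.38 to 0.45. The E-type cyclins, which fire S phase with Cdk2, had values of 0.31 (SE 0.23, adjusted p = 0.346) for Ccne1 and -0.49 (SE 0.17, adjusted p = 0.0742) for the dim Ccne2. E2f1, the activating E2F, read 6.36, 6.19 and 5.90 in wild-type and 6.49, 6.65 and 6.47 in PiZ. Its groups were apart by a small margin, and the difference of 0.39 (SE 0.14, adjusted p = 0.0835) did not pass. The second, dimmer E2f1 probe set read 0.42 and passed in the limma test over all single-gene probe sets (adjusted p = 0.0245).

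**Figure D2:**
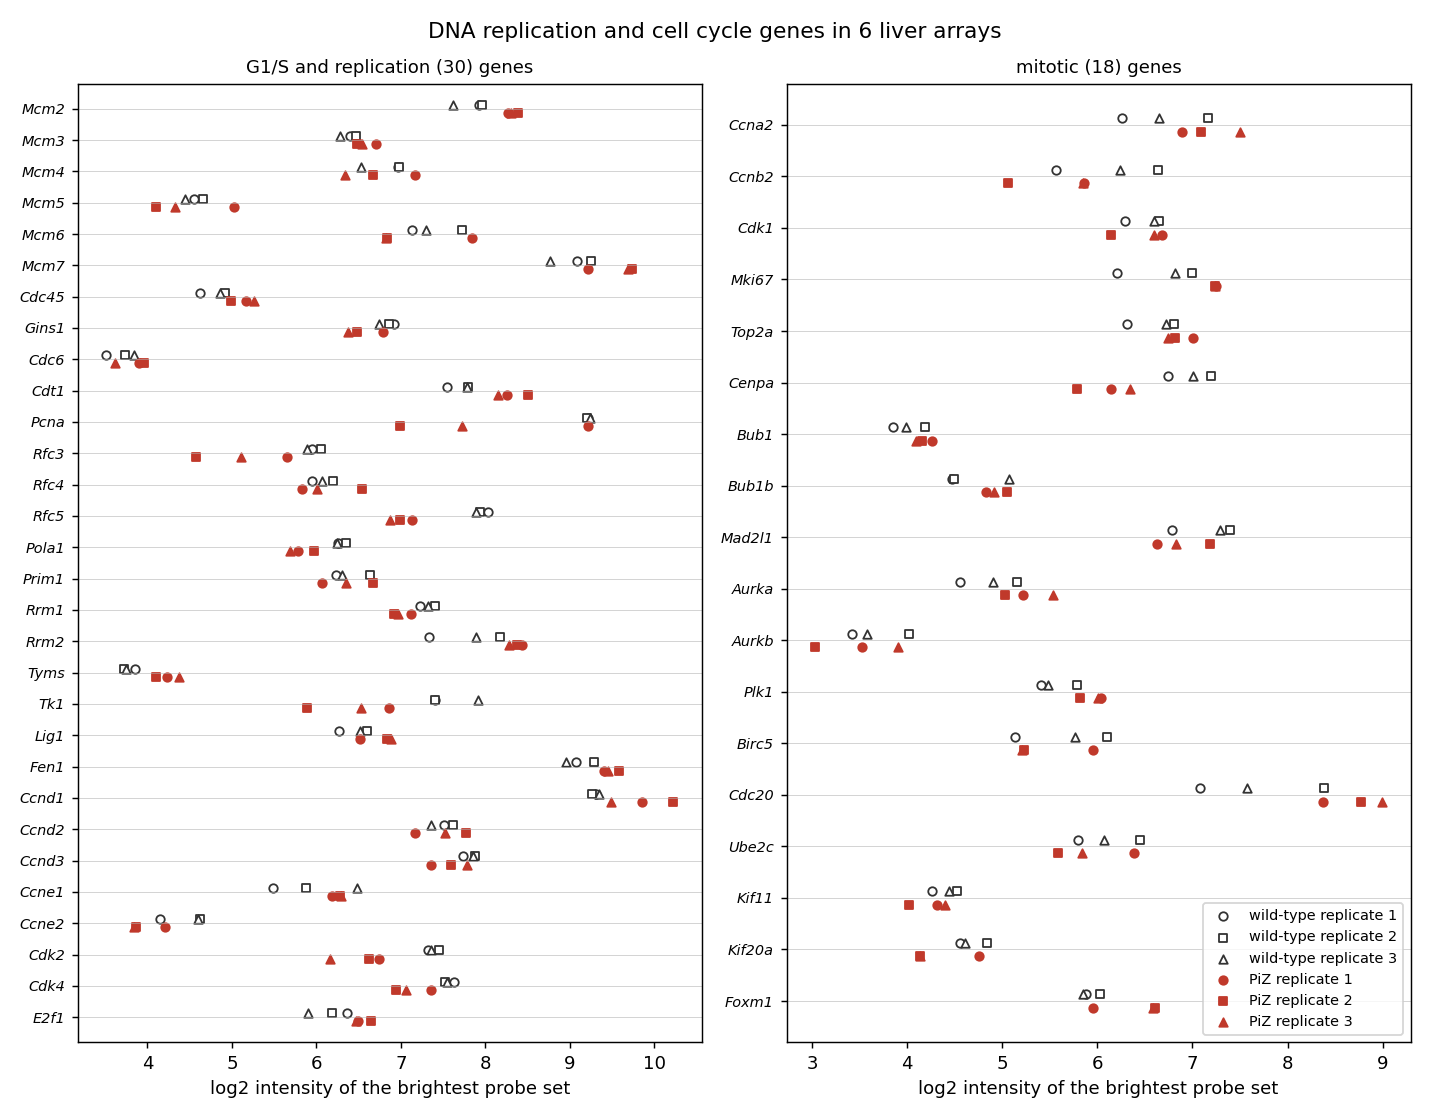
Log2 intensity (x axis) of every measured member in each of the 6 arrays, open symbols for wild-type and filled for PiZ, with circles, squares and triangles for replicates 1, 2 and 3. For Rfc5, Cdk2 and Cenpa the filled symbols lie left of all open ones, while for Pcna, Mcm5 and Mcm6 the filled circle stands apart from the other filled symbols.

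Among the mitotic members Cenpa alone passed. Cenpa, the histone H3 variant that marks centromeres, read 6.75, 7.19 and 7.003 in wild-type and 6.15, 5.79 and 6.34 in PiZ. No array of PiZ reached the lowest of wild-type, and Cenpa fell by 0.89 (SE 0.18, limma adjusted p = 0.0131), a fold of 1.85, passing in 13 of 17 alternatives. Ccnb2, a B-type cyclin, read 5.57, 6.64 and 6.24 in wild-type and 5.86, 5.06 and 5.85 in PiZ, with overlap, and differed by -0.56 (SE 0.31, adjusted p = 0.218). Cdk1, the mitotic kinase it serves, differed by -0.04 (SE 0.17, adjusted p = 0.886). Ccna2, the cyclin of S phase and early mitosis, read 6.25, 7.16 and 6.65 against 6.88, 7.09 and 7.50 and differed by 0.47 (SE 0.25, adjusted p = 0.197).

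The largest mitotic difference was upward and did not pass. Cdc20, which activates the anaphase-promoting complex, read 7.08, 8.38 and 7.58 in wild-type and 8.37, 8.77 and 8.99 in PiZ. PiZ replicate 1 and wild-type replicate 2 were level, and the difference was 1.03 (SE 0.32, limma adjusted p = 0.0512), with other probe sets at 0.32 and 0.30. Ube2c, the ubiquitin-conjugating enzyme of the same complex, differed by -0.17 (adjusted p = 0.622). Mki67, the proliferation mark Ki-67, read 6.20, 6.99 and 6.81 in wild-type and 7.24, 7.23 and 7.24 in PiZ. All PiZ arrays were above wild-type and nearly equal, but wild-type replicate 1 lay far below its own group, and the difference of 0.57 (SE 0.20, adjusted p = 0.0725) did not pass. Plk1, a mitotic kinase, read 5.41, 5.79 and 5.48 against 6.03, 5.82 and 6.00, also without overlap (0.39, SE 0.14, adjusted p = 0.0723).

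Top2a, the topoisomerase that untangles chromosomes, differed by 0.24 (SE 0.16, limma adjusted p = 0.282). Foxm1, the transcription factor of mitotic genes, read 5.88, 6.03 and 5.85 in wild-type and 5.95, 6.61 and 6.58 in PiZ. PiZ replicate 1 lay within wild-type and the other PiZ arrays above it, and the difference of 0.46 (SE 0.19, adjusted p = 0.106) did not pass. The other Foxm1 probe sets read 0.40, 0.02 and -0.16. At their brightest probe sets the spindle checkpoint genes Bub1, Bub1b and Mad2l1 and the aurora kinases Aurka and Aurkb overlapped between groups. So did the passenger protein Birc5 and the kinesins Kif11 and Kif20a. The differences of all these genes there ran from -0.33 (Kif20a) to 0.39 (Aurka). Their adjusted p ran from 0.173 (Aurka) to 0.61 (Birc5). Other probe sets read -0.35 and 0.51 for Kif11, -0.10 for Bub1 and -0.04 for Aurkb. The groups did not overlap at the first of these for Kif11 and at that for Bub1.

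The mitotic genes moved together within the wild-type group. Wild-type replicate 1 was the lowest wild-type array for 17 of 18 mitotic members and wild-type replicate 2 the highest for 17 of 18. Over all 12393 genes those arrays were lowest for 4446 and highest for 4415, and among the 30 G1/S members lowest for 14 and highest for 20. The median deviation of the mitotic members from their wild-type mean was -0.28, 0.24 and 0.03 in wild-type and 0.18, 0.09 and 0.11 in PiZ. The PiZ medians were thus inside the range of the wild-type arrays. The 3′ to 5′ distance of Gapdh was 1.49, 2.06 and 1.65 over the wild-type arrays, the same order as their mitotic medians. In PiZ it was 1.99, 4.39 and 4.01, the reverse of the order of the medians. A link between this distance and the mitotic genes was not tested. For the G1/S members the medians were -0.03, 0.09 and -0.02 in wild-type and 0.12, 0.14 and -0.06 in PiZ. PiZ replicate 1 had the opposite sign to both other PiZ arrays for 7 members (14.6%), 4 of them G1/S genes and 3 mitotic, beside 2719 of all 12393 genes (21.9%).

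**Figure D3:**
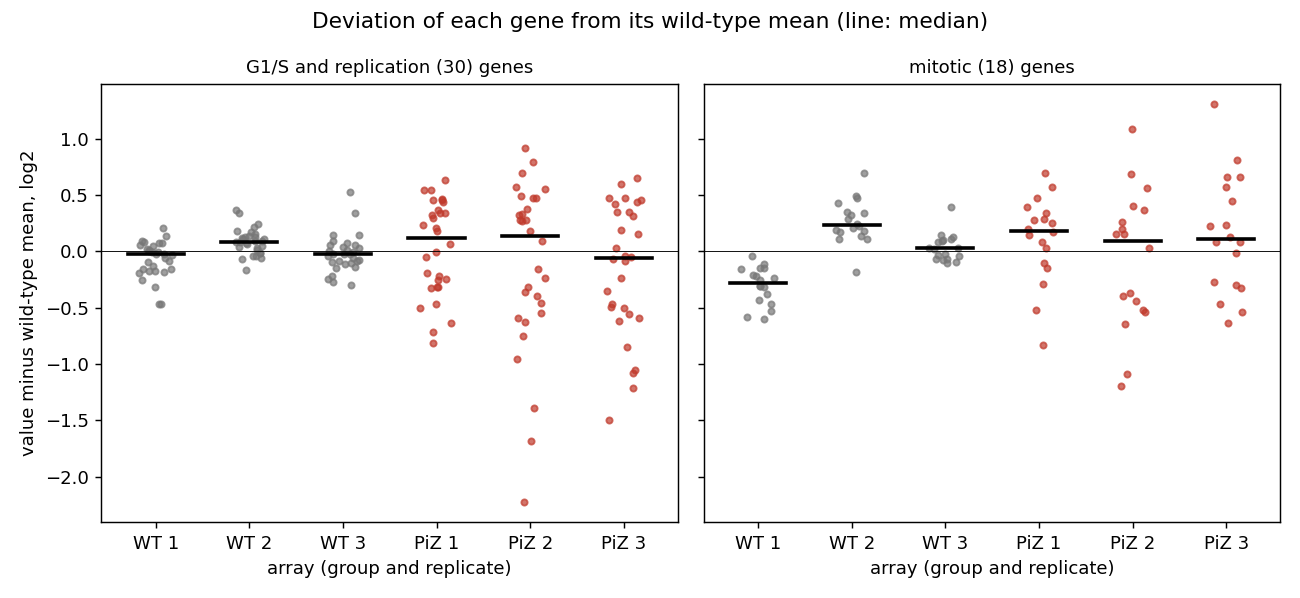
Deviation of each member from its wild-type mean (log2, y axis) in each array (x axis), for 30 G1/S and replication genes (left) and 18 mitotic genes (right); each point is a gene and each line the median of that array. In the right panel the wild-type medians run from -0.28 to 0.24 and enclose the PiZ medians, while in the left panel the PiZ arrays spread wider than wild-type around medians close to 0.

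Several members were read by more than 1 probe set, and these did not always point the same way. The 48 members had 91 single-gene probe sets. Of the 24 members with several, 13 had all of them on the same side of 0 and 11 had them on both sides. Tested over 20380 probe sets, 7 member probe sets were higher and 7 lower. E2f1 (0.39 and 0.42), Mcm2, Ccnd1, Cdc20, Ccna2 and Top2a were on the positive side with every probe set, and Cdk4 (-0.45, -0.60 and -0.17) and Rfc3 on the negative side. Cdt1, Rrm2, Fen1, Mcm3, Mcm4, Mcm7, Rfc4, Ccnd2, Foxm1, Kif11 and Bub1 held both signs. Probe sets of a gene can lie at different distances from the 3′ end or read different transcripts; no position was used here.

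**Figure D4:**
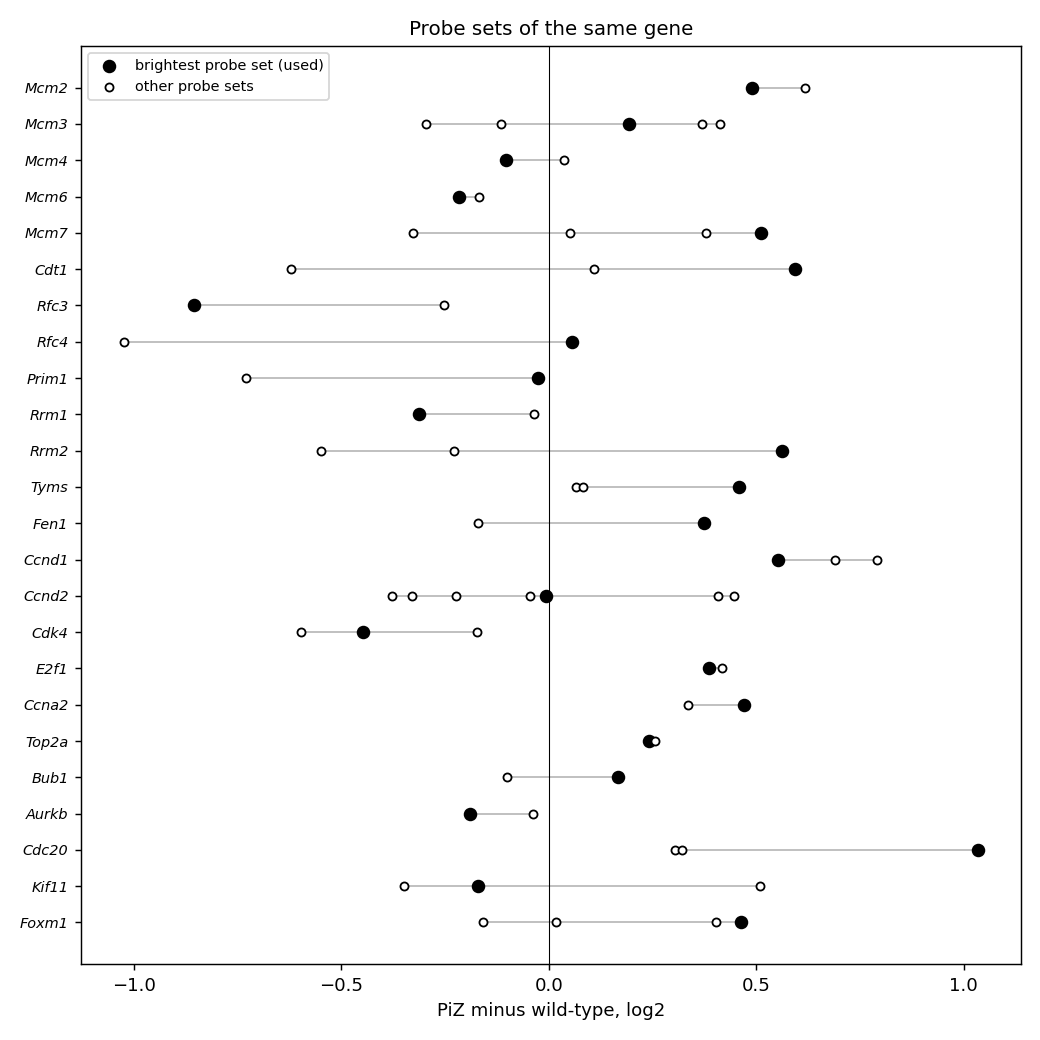
PiZ minus wild-type difference (log2, x axis) of every probe set of the 24 members that have more than 1; filled points are the brightest probe set, used for all other values, and open points the rest. Cdt1, Rrm2 and Rfc4 have probe sets on both sides of 0, from -0.62 to 0.59 in Cdt1, while the 3 probe sets of Ccnd1 all lie between 0.55 and 0.79.

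The regulators around these genes were taken from 7 further written lists, with 141 of 161 genes measured; 12 rose (8.51%) and 19 fell (13.5%), beside 11.3% and 12.3% of all genes. Among CDK inhibitors 1 of 7 rose and 2 fell (median -0.04). Cdkn1a encodes p21, the inhibitor of Cdk2 that p53 induces, and read 6.35, 5.98 and 6.11 in wild-type and 9.70, 9.67 and 9.93 in PiZ. The PiZ arrays lay close together far above wild-type, and Cdkn1a rose by 3.62 (SE 0.14, limma adjusted p = 1.36e-05), a fold of 12.3, with 2.41 at its second probe set. Cdkn1b, which encodes p27, read 8.08, 8.06 and 8.01 in wild-type and 7.63, 7.67 and 7.38 in PiZ. It fell by 0.49 (SE 0.12, adjusted p = 0.0242), and Cdkn2c, an inhibitor of Cdk4, fell by 0.56 (SE 0.15, adjusted p = 0.0371).

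Of 12 pocket proteins, which hold E2F in check, and other E2F partners, 7 passed (58.3%), beside 23.6% of all genes. Of these, 2 went upward and 5 downward (median of the list -0.06). The pocket proteins Rb1 (0.03, SE 0.16, limma adjusted p = 0.882) and Rbl1 (0.16, SE 0.24, limma adjusted p = 0.655) did not pass. E2f8, a repressor E2F of polyploid hepatocytes, read 8.20, 7.98 and 7.67 in wild-type and 5.83, 6.71 and 6.13 in PiZ. All PiZ arrays were lower, PiZ replicate 1 most of all, and E2f8 fell by 1.73 (SE 0.24, limma adjusted p = 0.00374), a fold of 3.31. Rbl2, the p130 pocket protein of resting cells, read 7.40, 7.23 and 7.59 against 6.49, 5.56 and 5.79. It fell by 1.46 (SE 0.24, adjusted p = 0.00658), although its second probe set read -0.29. E2f5, a repressor E2F that works with p130, fell by 0.89 (SE 0.11, adjusted p = 0.00241), and its second probe set read -0.93.

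**Figure D5:**
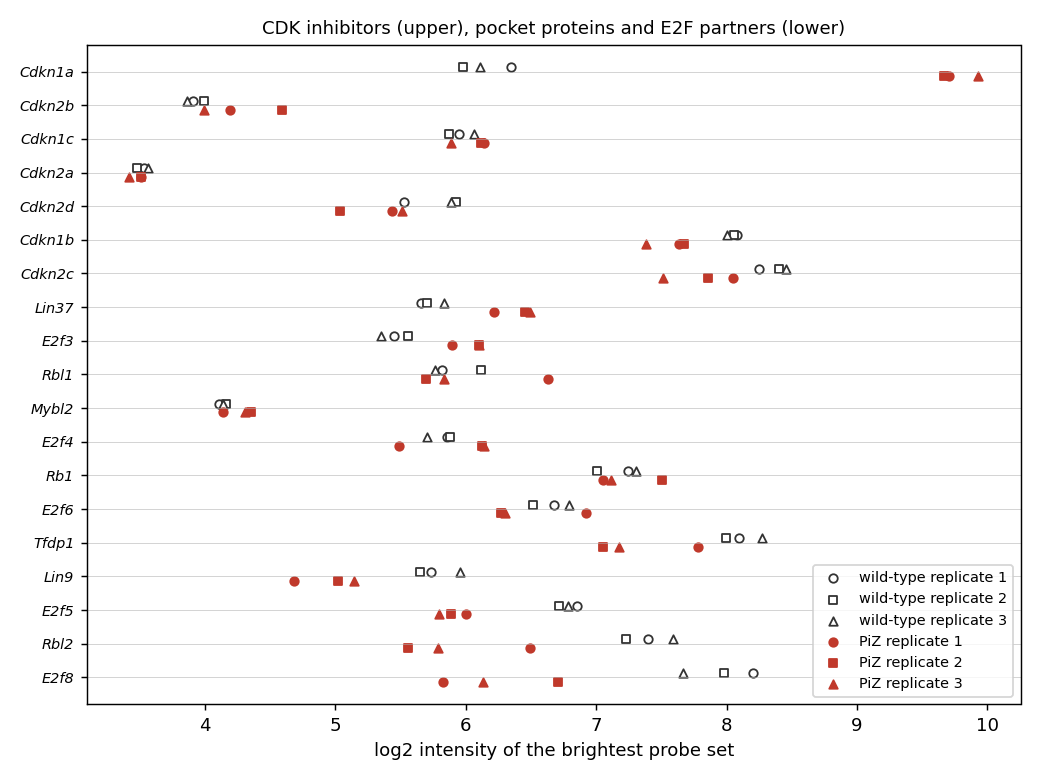
Log2 intensity (x axis) in each of the 6 arrays for 7 CDK inhibitors (upper) and 12 pocket proteins and E2F partners (lower), open symbols for wild-type and filled for PiZ. Cdkn1a stands out, with 5.98 to 6.35 in wild-type and 9.67 to 9.93 in PiZ, and E2f8, Rbl2 and E2f5 lie lower in every PiZ array.

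Further replication genes gave 2 higher (5.71%) and 8 lower (22.9%) of 35, beside 11.3% and 12.3% of all genes. Their median difference was 0.02. Mcm10, which joins the helicase to polymerase alpha, read 9.98, 10.27 and 10.34 in wild-type and 8.35, 8.32 and 8.23 in PiZ. All PiZ arrays were far below wild-type, and Mcm10 fell by 1.90 (SE 0.13, limma adjusted p = 0.000186), a fold of 3.72, with -0.88 at its second probe set. Rpa3, a subunit of the protein that coats single-stranded DNA, fell by 1.31 (SE 0.17, adjusted p = 0.00305), and Gins4 of the GINS complex by 1.09 (SE 0.31, adjusted p = 0.0397). Among checkpoint genes 2 rose (14.3%) and 1 fell (7.14%) of 14 (median 0.09). Chek1, the kinase that slows replication after fork damage, read 4.90, 5.45 and 5.28 against 6.04, 6.54 and 6.20 and rose by 1.05 (SE 0.19, adjusted p = 0.00878), with 0.10 to 0.46 at its other 3 probe sets. Gadd45b, a stress-response gene, rose by 1.85 (SE 0.31, adjusted p = 0.00717), with 1.27 and 0.09 at its other probe sets. Atm, the kinase that senses double-strand breaks, fell by 1.16 (SE 0.21, adjusted p = 0.00976).

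Further mitotic genes gave 2 higher (4.88%) and 3 lower (7.32%) of 41, beside 11.3% and 12.3% of all genes. Their median difference was 0.09. Spc25, a kinetochore subunit, read 8.45, 8.52 and 8.59 in wild-type and 7.50, 6.87 and 6.66 in PiZ, and fell by 1.51 (SE 0.21, limma adjusted p = 0.00374), yet its second, dimmer probe set read 0.62 with an adjusted p of 0.0206 over all probe sets. Its partner Ndc80 rose by 0.65 (SE 0.14, adjusted p = 0.0173), from 3.67 to 3.97 in wild-type to 4.22 to 4.56 in PiZ, near or below the lower quartile of the arrays, and Smc2, a condensin core gene, fell by 0.74 (SE 0.22, adjusted p = 0.046). Of other cyclins and kinases 1 of 15 rose (6.67%) and 0 fell. Ccnl1, a cyclin tied to splicing, was the one that rose, by 0.92 (SE 0.22, adjusted p = 0.0217). Of hepatocyte mitogens and early growth genes 2 of 17 rose (11.8%) and 0 fell (median 0.10). Igfbp1, an early gene of liver regeneration that fasting also induces, rose by 2.92 (SE 0.58, adjusted p = 0.0129), and Tnf by 0.57 (SE 0.14, adjusted p = 0.026). Myc read 6.54, 8.67 and 8.57 in wild-type and 8.37, 7.34 and 6.69 in PiZ. Both groups spanned a wide range and overlapped, and the difference of -0.46 (SE 0.62, adjusted p = 0.602) did not pass.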

How the data were processed

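Livers of 3 wild-type and 3 PiZ mice gave total RNA, labelled with biotin for one-colour Affymetrix arrays (per the labels). The authors deposited log2 intensities per probe set, made with affy and RMA per the submitters' processing notes; for versions, chip definition and filters no source used here gives an entry. RMA equalises array distributions, so a shift shared by most genes would be lost. The log2 scale was read from the values, 2.30 to 14.98. The labels call the samples biological replicates. Each array held 22690 probe sets, 64 of them controls. The annotation gave exactly 1 gene for 20380, several for 691 and none for 1555, and 20351 were matched by Entrez identifier in the mouse reference table, with 0 symbols updated. They name 12393 genes, 4956 by several probe sets, and the brightest by mean over 6 arrays was used. No value column was without a sample (0).

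PiZ was compared with wild-type by the two-sided test of limma (version 3.58.1, R version 4.3.3; lmFit, eBayes, no covariate), with Benjamini-Hochberg adjustment over all 12393 genes and a threshold of 0.05; Python 3.11.15, pandas 2.3.3 and matplotlib 3.10.9 made tables and figures. The fit was tested on simulated arrays of the PiZ against wild-type comparison (12393 genes, 200 changed). It recovered 71% of genes changed by 1 and 96% of those changed by 2, with 9 false among 176 calls and 0 wrong signs. The simulated noise was independent between genes and arrays and had the same spread in both groups. In the real arrays the median SD was 0.207 in PiZ and 0.100 in wild-type, and 23.6% of genes passed. The simulated rates therefore check the code and are not error rates of this comparison. The members, lists and naming rule were written with earlier results of these data known. The rule named every member that passed, the 3 largest differences not passing in each set, a fixed group of cell cycle genes, and up to 3 passing genes of each further list. Other members were named after their values were seen. A marker list's summed level is log2 of the sum of its genes' linear intensities.

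Alternatives were the mean of all probe sets, leaving out dim genes, centring on reference genes, another round of quantile normalization, cyclic loess, trend and robust variance, array weights, the 3′ to 5′ distance as a covariate, PiZ replicate 1 alone, a threshold of 0.01, a replicate block, and each array left out. Dropping probe sets with an x or s suffix, which can read related genes, was added after seeing the data.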

Additional observations from a re-analysis of the deposited data

How the results depend on the processing

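Of the 10 members that passed, none changed sign under any of the 18 alternatives. The counts moved. G1/S members gave 3 higher and 6 lower as reported. They gave 8 and 2 when centred on reference genes, 7 and 10 with array weights, 0 and 2 with the 3′ to 5′ covariate, 0 and 1 at a threshold of 0.01, and 0 to 7 and 2 to 12 without single arrays. Mitotic members gave 0 higher and 1 lower as reported. They gave 3 and 0 when centred, 5 and 2 with array weights, 0 and 0 with the covariate, 0 and 0 at 0.01, and 1 and 1 after cyclic loess, after quantile normalization and without dim genes. Without single arrays they gave 0 to 2 and 0 to 2. All genes gave 1396 higher and 1525 lower, 2198 and 580 when centred, 3641 and 2879 with array weights, 867 and 947 with the covariate, 444 and 470 at 0.01, and 518 to 3397 and 550 to 2778 without single arrays.

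Same-numbered wild-type and PiZ arrays correlated at 0.26, 0.29 and -0.03 in their deviations from the group means. The labels give no pairing of samples across groups. With 3 arrays per group these correlations cannot decide whether the numbers pair them. The fit with the replicate number as a block gave 1487 higher and 1738 lower genes, 3 and 6 G1/S members, and 1 and 1 mitotic members. PiZ replicates 1 and 2 correlated best with the wild-type array of their own number, and PiZ replicate 3 with wild-type replicate 2 (0.25).

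Differences that turned sign are these, and the cause was not tested. With the 3′ to 5′ covariate they were Pcna 0.068, Myc 0.18, Mcm4 0.29, Cdk1 0.17, Mcm5 0.47, Rfc4 -0.32, Kif20a 0.045, Birc5 0.17, Mcm6 0.38 and Ube2c 0.22. With PiZ replicate 1 alone they were Cdk1 0.17, Rfc4 -0.24, Birc5 0.28, Myc 0.45, Mcm6 0.46, Mcm5 0.47, Mcm4 0.34, Ube2c 0.28 and Kif20a 0.082. Centred on reference genes they were Gins1 0.026, Mcm4 0.22, Ccnd3 0.071, Cdk1 0.28, Rrm1 0.0052, Aurkb 0.13, Prim1 0.29, Birc5 0.11, Mcm5 0.25, Kif11 0.15, Mcm6 0.10, Ube2c 0.15, Mad2l1 0.045 and Ccnd2 0.31. Array weights gave Ccnd2 0.056 and Aurkb 0.0041, cyclic loess Ccnd2 0.025, Cdc6 -0.021 and Rfc4 -0.044, and quantile normalization Bub1 -0.0060, Cdc6 -0.019 and Ccnd2 0.075. The mean of probe sets gave Rrm2 -0.072 and Rfc4 -0.48, and probe sets without an x or s suffix Mcm3 -0.29, Fen1 -0.17, Rrm2 -0.23, Mcm7 -0.33 and Rfc4 -1.02. Without single arrays the range was -0.32 to 0.092 for Mcm4, -0.34 to 0.12 for Mcm5, -0.15 to 0.20 for Rfc4, -0.18 to 0.12 for Prim1 and -0.15 to 0.15 for Ccnd2. It was -0.15 to 0.13 for Cdk1, -0.39 to 0.039 for Aurkb, -0.48 to 0.0086 for Birc5 and -0.39 to 0.0074 for Ube2c. None of the genes listed here with a turned sign had passed.

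The mean values of Cdc6, Tyms, Ccne2, Bub1 and Aurkb lay below the lower quartile of every array, so their differences are the least certain in size. With 3 arrays a group, a difference that did not pass is not shown to be absent.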
